A study of Mus musculus with 8 samples.

Results

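Immediate-early genes were followed gene by gene through neonatal mouse heart muscle cells. The 10 genes were chosen by symbol: Fos, Fosb, Fosl2, Jun, Junb, Jund, Atf3, Egr1, Nr4a1 and Ier2. All 10 were found among the 48440 entries of the deposited count table, and all 10 passed the filter on low counts that left 13771 genes for testing. Cardiomyocytes came from C57BL6/J pups on postnatal day 2, and each of 4 litters gave 1 male and 1 female heart, so that there were 8 libraries, 4 per sex and 2 per litter. The labels name no treatment and no engineered allele. The labels call the cells purified and do not describe how the hearts were taken apart, and no undissociated heart was measured, so levels in the intact heart and levels reached during isolation cannot be told apart in any library.

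Immediate-early genes are switched on by signals that act on proteins already in the cell, without new protein synthesis, and their RNAs are short-lived. Fos and Jun family proteins pair through leucine zippers to form AP-1, a transcription factor that binds the sequence TGANTCA. Egr1 and Nr4a1 are a zinc finger factor and an orphan nuclear receptor induced by the same kinds of stimulus. In heart muscle these genes are known to respond to stretch, to hypertrophic hormones and to injury, and in many tissues they rise when cells are enzymatically released.

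Total counts ran from 14226342 in the female of litter 3 to 24910243 in the male of litter 1. Levels are given as CPM, read counts divided by a library size that was scaled by TMM, a method that corrects for differences in RNA composition, unless RPKM is named; sums and levels of cell type lists are CPM of the total count, without TMM. The fixed list of 10 cardiomyocyte genes, among them Myh6, Tnnt2 and Actc1, summed to between 65676 and 81947 CPM in each library. Lists for other cells summed to 33.1 to 246 CPM for fibroblasts, 17.1 to 154 for endothelial cells, 916 to 1454 for mural cells, 99.3 to 541 for erythroid cells, 5.36 to 10.3 for macrophages and at most 0.137 for neutrophils and for lymphocytes. Most of the mural sum was Acta2 and Abcc9. The T cell genes Cd3e and Cd3g and the neutrophil genes Ly6g and Retnlg had no count in any library. In bulk RNA, fewer cells of a type and less RNA per cell cannot be told apart.

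The promoters of these genes are known for binding sites of CREB, of AP-1 itself and of serum response factor, and RefSeq holds a window for 8 of the 10 genes on GRCm38.p6. The 250 bases before the start are shown for 5 of the genes that were high in the same libraries and whose windows hold such letters. Junb, whose window also holds such letters, is not shown. Capitals mark, on either strand, the short CRE core TGACG, the longer TGCGTCA that contains the reverse complement of that core, the Jun element TGACATCA and the Egr site GCGNGGGCG.
Fos, chr12:85473640-85473889, plus strand: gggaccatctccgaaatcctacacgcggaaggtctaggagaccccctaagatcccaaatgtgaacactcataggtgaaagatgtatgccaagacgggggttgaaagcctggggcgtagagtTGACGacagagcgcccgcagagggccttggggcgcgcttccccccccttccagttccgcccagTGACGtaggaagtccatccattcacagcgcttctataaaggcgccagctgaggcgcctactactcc
Fosb, chr7:19310046-19310295, minus strand: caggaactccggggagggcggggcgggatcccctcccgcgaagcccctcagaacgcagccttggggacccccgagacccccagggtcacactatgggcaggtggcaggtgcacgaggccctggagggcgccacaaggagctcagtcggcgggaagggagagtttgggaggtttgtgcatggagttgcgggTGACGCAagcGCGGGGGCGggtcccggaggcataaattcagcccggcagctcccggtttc
Jun, chr4:95052223-95052472, minus strand: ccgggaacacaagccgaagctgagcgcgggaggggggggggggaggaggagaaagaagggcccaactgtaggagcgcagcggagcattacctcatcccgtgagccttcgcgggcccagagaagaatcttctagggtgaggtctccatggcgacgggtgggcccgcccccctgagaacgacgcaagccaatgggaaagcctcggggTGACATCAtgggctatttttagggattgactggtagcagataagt
Atf3, chr1:191183334-191183583, minus strand: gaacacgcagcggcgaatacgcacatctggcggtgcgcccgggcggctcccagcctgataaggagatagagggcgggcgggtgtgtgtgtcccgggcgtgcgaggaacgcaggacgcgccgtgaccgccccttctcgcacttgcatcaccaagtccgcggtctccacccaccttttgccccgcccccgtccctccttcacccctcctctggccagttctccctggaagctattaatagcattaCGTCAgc
Nr4a1, chr15:101266596-101266845, plus strand: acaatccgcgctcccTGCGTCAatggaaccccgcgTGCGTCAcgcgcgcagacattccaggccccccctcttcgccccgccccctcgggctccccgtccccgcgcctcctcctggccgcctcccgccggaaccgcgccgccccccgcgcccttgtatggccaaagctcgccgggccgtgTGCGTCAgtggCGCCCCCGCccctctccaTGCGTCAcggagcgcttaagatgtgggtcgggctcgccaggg

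The core stood in the windows of 5 of the 8 genes, with 2 in Fos, 1 each in Fosb, Junb and Atf3, and 4 in Nr4a1, against 17.8% of all 32851 RefSeq promoter windows of this length. Each of the 4 in Nr4a1 lies in a TGCGTCA, and Nr4a1 had the only window of 32851 with 3 or more copies of those letters. TGACATCA, in 2.93% of windows, was found in Jun, where its first base lies at -45 from the start. GCGNGGGCG, in 4.70% of windows, was found in Fosb, Fosl2 and Nr4a1. The full CRE TGACGTCA, the AP-1 letters TGANTCA and the CArG box bound by serum response factor were in none of the 8 windows and in 1.55%, 6.75% and 1.47% of all windows. A window of 250 bases cannot show a site farther from the start, and Egr1 and Ier2 had no window. These are matches of letters and not measured binding. The RefSeq start of Jund lies 1210 bases before the GENCODE M21 start, so its window, with no match, covers another part of the locus. Those of Nr4a1, Atf3 and Fosl2 lie inside the annotated gene, so their windows are of an inner start.

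Short life of these RNAs is known to depend on AU-rich elements in the 3' untranslated region, of which ATTTA is the core. At least 1 ATTTA was found in the longest annotated 3' region of 9 of the 10 genes, all but Ier2, against 65.7% of 21153 coding genes. Fos had 4 in 815 bases, Nr4a1 had 3 in 543 and Fosl2 had 8 in 4653, while Fosb had 1 in 2302. At least 3 were found in 36.2% of coding genes. Density ran from 0 per kb in Ier2 and 0.434 in Fosb to 5.52 in Nr4a1, with 1.72 in Fosl2, against a median of 1.16 over coding genes. The nonamer TTATTTATT, in 7.59% of coding genes, was found in Fos and Fosl2, and the 30 bases around each match are shown because both genes share the motif while their levels went apart across litters.
Fos: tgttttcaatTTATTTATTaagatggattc
Fosl2: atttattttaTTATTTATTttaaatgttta

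In the Fos family, Fos and Fosb were high in both hearts of litter 3, and Fosl2 was not. Fos encodes the inducible partner of Jun, and it lies at chr12:85473890-85477273. In the males of litters 1 to 4 it had 43.3, 23.3, 185 and 51.3 CPM, and in the females 66.3, 41.9, 161 and 65.9 CPM. Both libraries of litter 3 lie far above the other 6, and litter 2 is lowest in each sex. The mean CPM of litter 3 was 3.56 times that of the other 3 litters. The fitted log2 difference, which averages the other litters on the log2 scale, was 1.93 (SE 0.13, edgeR adjusted p = 1.92e-06).

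Fosb, a close relative of Fos at chr7:19302696-19310051, had 9.88, 7.65, 43.5 and 11.2 CPM in the males and 19.0, 11.5, 48.8 and 17.04 CPM in the females. Its litter 3 libraries do not overlap the others, and its log2 difference of 1.93 (SE 0.11, edgeR adjusted p = 1.32e-06) is like that of Fos. Fosl2, which encodes Fra-2, lies at chr5:32135801-32157842. It had 18.5, 22.6, 18.6 and 12.8 CPM in the males and 21.3, 21.9, 28.3 and 15.4 CPM in the females. The male of litter 3 sits among the other males, and only the female stands above every other library. Fosl2 was the 1 gene of the 10 whose litter 3 libraries overlapped the rest, and its difference of 0.32 (SE 0.11, edgeR adjusted p = 0.0478) just passed the threshold. Without the female of litter 3 the difference was 0.07 (adjusted p = 0.759), and it missed the threshold in 7 of the 11 fits that left out a library or a litter. Fosl2 was instead lowest in litter 4, by -0.62 (SE 0.12, edgeR adjusted p = 0.0086).

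**Figure D1:**
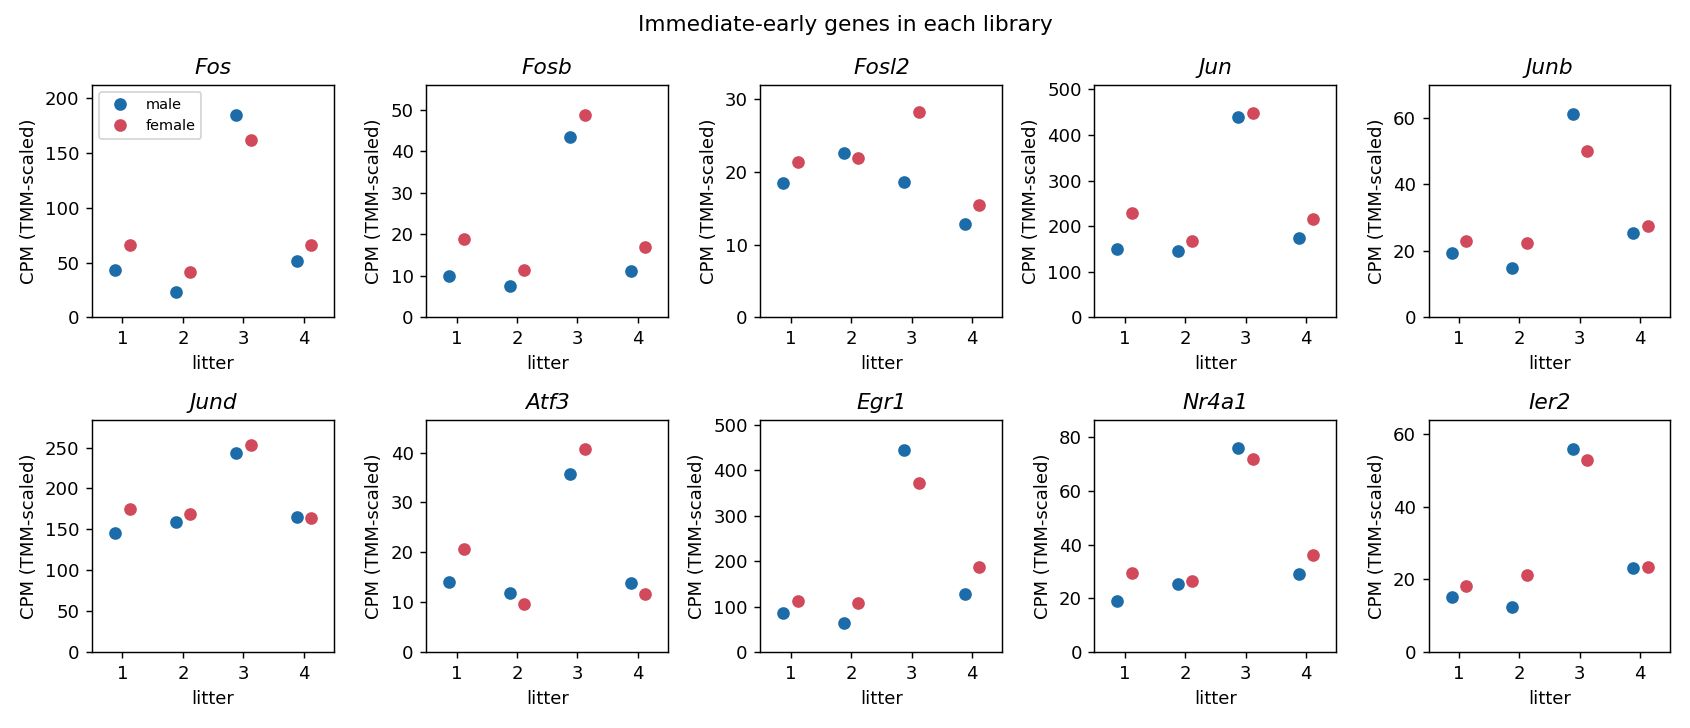
Levels of the 10 genes in each library, in TMM-scaled CPM from 0 (linear axis), by litter; blue points are males and red points females. In 9 panels both points of litter 3 lie above the other 6, and in the Fosl2 panel the male of litter 3 lies at 18.6 CPM, inside the range of the others.

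The Jun family supplies the partners of the Fos proteins, and all 3 of its genes were higher in litter 3, Jund least. Jun, a gene of a single exon at chr4:95049034-95052222, had 150, 147, 440 and 174 CPM in the males and 229, 168, 448 and 216 CPM in the females. Litter 3 was 2.46 times the mean CPM of the others, and the fitted log2 difference was 1.32 (SE 0.08, edgeR adjusted p = 1.61e-06). The male and female of litter 3 were nearly level.

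Junb at chr8:84974484-84978718, which opposes Jun at some targets, had 19.4, 14.97, 61.2 and 25.2 CPM in the males and 23.0, 22.2, 50.1 and 27.5 CPM in the females. The difference was 1.37 (SE 0.11, edgeR adjusted p = 9.11e-06), again without overlap. Exons of Prdx2 on the opposite strand cover 7.52% of the exon bases of Junb, and the labels do not say whether counting used the strand. Prdx2, an abundant peroxiredoxin gene with 5739 to 11211 counts per library, differed in litter 3 by -0.12 (SE 0.06, edgeR adjusted p = 0.121).

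Jund at chr8:70698949-70700616 is the Jun gene known to be expressed steadily in resting cells. It had 146, 159, 243 and 165 CPM in the males and 175, 169, 253 and 164 CPM in the females. Litter 3 was 1.52 times the mean CPM of the others, and the fitted log2 difference was 0.61 (SE 0.06, edgeR adjusted p = 3.67e-05). The other 6 libraries lie close together, and without litter 3 the range over litters was 0.04 (adjusted p = 0.910). The antisense gene Gm11175 shares 43.5% of the 100-base windows of Jund and had 20 to 52 counts per library, with a litter 3 difference of its own of 0.78 (SE 0.26, edgeR adjusted p = 0.0393).

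Atf3, a bZIP factor known to be induced by stress and to restrain other induced genes, lies at chr1:191170296-191218039. It had 14.2, 11.9, 35.8 and 14.0 CPM in the males and 20.7, 9.71, 40.8 and 11.6 CPM in the females. Litter 3 exceeded the others by 1.51 (SE 0.13, edgeR adjusted p = 9.11e-06). Atf3 was also the 1 gene of the 10 that was lower in both litter 2 (-0.91, adjusted p = 0.00437) and litter 4 (-0.60, adjusted p = 0.0257) than in the rest, with litter 1 between.

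Egr1, the zinc finger factor, at chr18:34859823-34864984, ranged widely. Its values were 86.3, 63.7, 446 and 129 CPM in the males and 113, 107, 373 and 187 CPM in the females. Litter 3 was highest without overlap (log2 difference 1.94, SE 0.13, edgeR adjusted p = 1.61e-06), and litter 4 came next in both sexes. Litter 4 was higher than litter 1 by 0.66 (adjusted p = 0.0271) and than litter 2 by 0.90 (adjusted p = 0.0139).

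Nr4a1, the orphan nuclear receptor Nur77, at chr15:101254269-101274795, had 19.1, 25.2, 75.8 and 29.1 CPM in the males and 29.4, 26.4, 71.7 and 36.2 CPM in the females, a difference of 1.45 (SE 0.10, edgeR adjusted p = 2.58e-06). Ier2, a short single-exon gene at chr8:84661331-84662852 whose product is a nuclear protein, had 15.2, 12.5, 55.9 and 23.2 CPM in the males and 18.2, 21.2, 52.7 and 23.5 CPM in the females, a difference of 1.56 (SE 0.12, edgeR adjusted p = 4.03e-06). For both genes the litter 3 libraries lie far above the next highest library, the female of litter 4.

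Levels of different genes were compared per exon length and total count, as RPKM without TMM scaling, and with no test. Jund was highest, at 111 ± 26.1 RPKM (SD over 8 libraries), followed by Jun at 77.7 ± 40.9, Egr1 at 42.2 ± 32.7 and Fos at 34.1 ± 26.1. Ier2, Junb, Nr4a1 and Atf3 followed at 18.4, 13.3, 11.2 and 9.27 RPKM. Fosb, at 3.40 ± 2.64 RPKM, and Fosl2, at 2.07 ± 0.529 RPKM, had the lowest means. Among 23843 genes with a count and a length, Jund ranked 301 and Jun 445, while Fosl2 ranked 8714. The SDs of neighbours in this order overlap, and the order changed between litters. In litter 2 Fosl2, at 2.33 RPKM, lay above Fosb, at 1.55, and in litter 1 Fos (23.3) lay above Egr1 (22.2) and Atf3 (8.10) above Nr4a1 (6.92). In litter 3 Jun reached 142 ± 1.75 and Jund 152 ± 4.17 RPKM (SD, n = 2). Counted on the longest transcript alone, Fosl2 was at 3.06 RPKM and Fosb at 5.61.

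**Figure D2:**
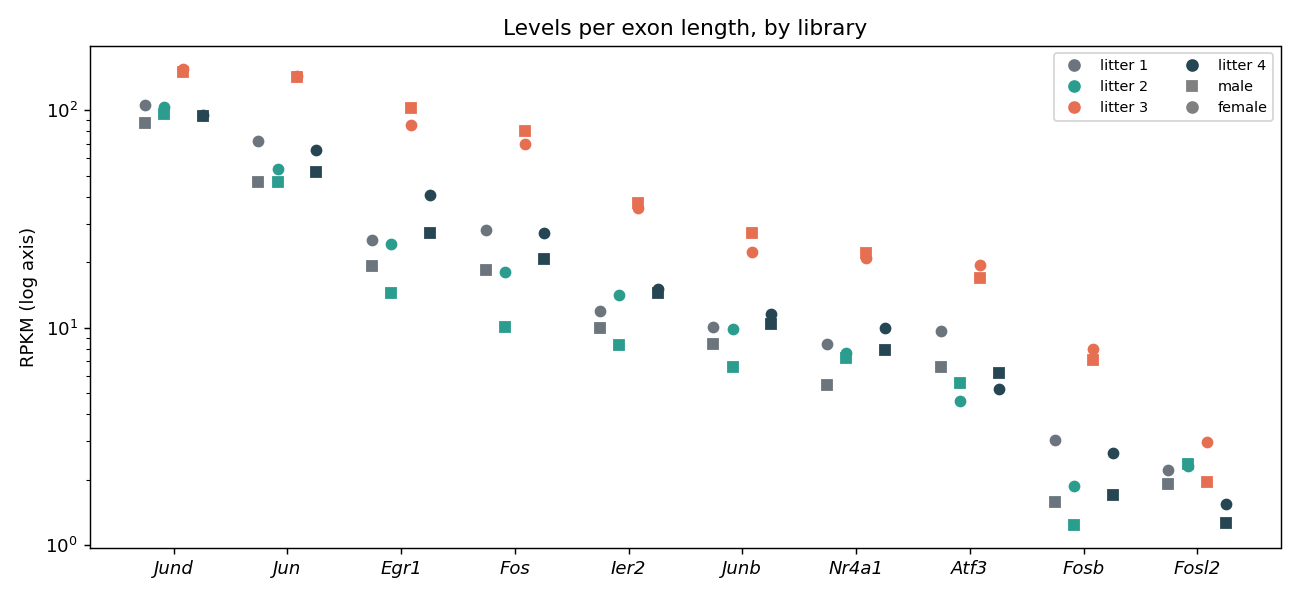
RPKM of the 10 genes on a log axis, ordered by the mean over 8 libraries; colours are litters, squares males and circles females. Jund and Jun have the highest means and Fosl2 the lowest, though Fosb lies below Fosl2 in both hearts of litter 2 and the male of litter 1, and the litter 3 points of all genes but Fosl2 sit above the rest of their column.

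Litter was then tested with sex in the model, which asks whether the 4 litters differ beyond the difference between the 2 hearts of a litter. All 10 genes passed in edgeR's quasi-likelihood test, where 32.1% of all 13771 tested genes did, or 45.8% at an unadjusted p under 0.05. Adjusted p-values ran from 6.74e-06 for Fosb to 0.00846 for Fosl2. The call of Fosl2 was lost without the female of litter 4 (edgeR adjusted p = 0.0611) and without litter 4 (range 0.21, adjusted p = 0.442). The log2 range over litters had a median of 1.67 over the 10 genes and of 0.37 over all tested genes, and it was largest among the 10 for Fos (2.47) and smallest for Jund (0.63). Litter took 88.2% to 94.2% of the sum of squares of log2 CPM in each gene but Fosl2, where it took 72.3%, against a median of 70.4% over all tested genes. DESeq2 called all 10 as well, and 24% of 13504 genes.

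Against the mean of the other 3 litters, all 10 genes were higher in litter 3, where 13.6% of tested genes were. The median log2 difference was 1.48 over the 10 genes and 0.00 over all tested genes. Both litter 3 libraries lay above the other 6 for 9 of the 10 genes, and for 15.1% of all tested genes. The other contrasts are fixed in part by this one, since each litter is set against a mean that holds litter 3. In litter 2, 8 genes were lower (background 0.879%), in litter 1, 6 were lower (background 5.41%), and in litter 4, Fosl2 and Atf3 were lower (background 5.8%). These counts moved with single libraries. That of litter 1 was 0 without its male. That of litter 2 was 5 without its male. That of litter 4 was 0 without its female, 1 without its male, 4 without the male of litter 1, 5 without the female of litter 3, 6 without litter 1 and 8 without litter 2. No gene was called higher in litter 1 (background 7.86%), litter 2 (3.3%) or litter 4 (4.71%) in edgeR, where an unadjusted p under 0.05 gave 0, 1 and 0 genes (background 15.1%, 10.8% and 14.1%), the 1 being Fosl2. No gene was lower in litter 3, either adjusted (background 14.8%) or unadjusted (20.5%). Litters cannot be told apart from the day or batch of preparation, for which the labels give nothing.

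Pairs of litters gave the order. Litter 3 against litter 4 was called for 10 of 10 genes, and litter 3 against litters 1 and 2 for 9 each, with Fosl2 the exception (adjusted p = 0.278 and 0.868). All-gene shares for these 3 contrasts were 20.7%, 26% and 20.4%. Litters 1 and 2 differed for 0 of the 10 genes, although 0.828% of all tested genes passed, 4 of the 10 had an unadjusted p under 0.05, as 14.4% of all did, and Fos came closest at -0.76 (edgeR adjusted p = 0.0719). Litter 4 differed from litter 2 in Fos, Fosl2 and Egr1, with a background of 6.54%, and from litter 1 in Egr1 and Fosl2, with a background of 12.8%. When the litters of each gene were put in order, 2 of the 20 steps among its lower 3 litters passed, those to litter 4 in Egr1 and from litter 4 in Fosl2.

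**Figure D3:**
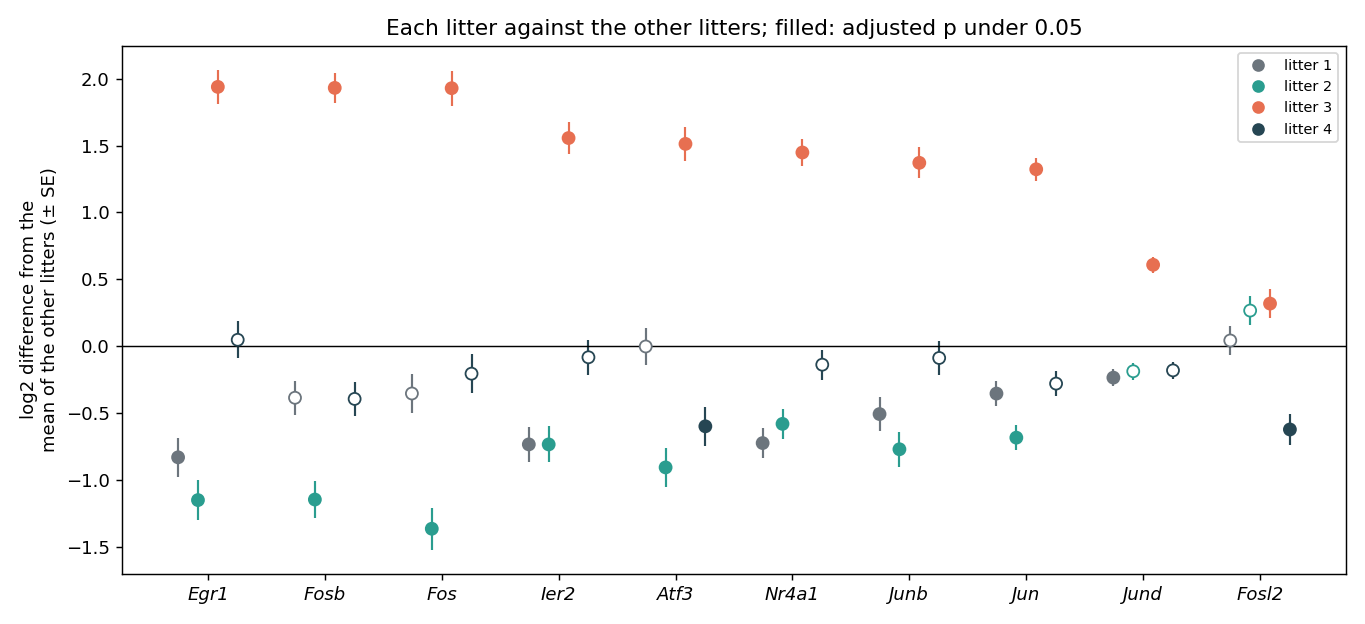
Log2 difference of each litter from the mean of the other 3, for the 10 genes, with error bars of 1 SE; filled points have an adjusted p under 0.05. Litter 3 is at 1.32 or higher for 8 genes, at 0.61 for Jund and at 0.32 for Fosl2, and litter 2 is the lowest for Fos at -1.37.

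With litter 3 left out, the remaining 3 litters still differed for 8 of the 10 genes, where 13.7% of 13899 tested genes passed. Jun, with a range of 0.30 (edgeR adjusted p = 0.0844), and Jund did not pass. Fos kept a range of 0.88 (adjusted p = 0.00086) and Egr1 of 0.91 (adjusted p = 0.000252), with litter 2 lowest in both. Litter 4 was above the mean of litters 1 and 2 for 5 genes, namely Fos, Junb, Egr1, Nr4a1 and Ier2 (background 5.99%). Those differences ran from 0.39 in Nr4a1 to 0.78 in Egr1, and Fosl2 was below that mean (background 8.29%). Litter 2 was below the mean of the other 2 for Fos, Fosb and Egr1 (background 0.216%) and above it for Fosl2 (background 1.73%). Litter 1 was above the mean of the other 2 for Fos and Atf3 (background 4.13%). In Fos, litters 1 and 4 did not differ in the fit of all litters (litter 4 minus litter 1 0.11, edgeR adjusted p = 0.719). None of the 10 was called lower in litter 1, with Nr4a1 closest at -0.28 (edgeR adjusted p = 0.122, background 2.9%).

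The genes varied together across libraries, apart from Fosl2. Pearson's r of log2 CPM over the 8 libraries was 0.81 to 0.99 in the 36 pairs without Fosl2, with a median of 0.95, and 0.11 to 0.44 in the 9 pairs with it. The libraries are not independent points, since 2 share a litter and litter 3 lies far from the rest. The closest gene to Fos was Dcxr, a sugar reductase gene of 1.16 to 2.52 CPM (r = 0.98), followed by Fosb, Junb, Insig1, a sterol sensor partner, and Egr1. Junb was closest to both Egr1 and Ier2, and Jun and Fosb were closest to each other (r = 0.99). Nr4a1 was closest to Hic2, Jund to Ptprd and Atf3 to Shisa3, a gene at no more than 3.23 CPM. Fosl2 was closest to Plk2 (r = 0.97), itself a known immediate-early kinase gene, at 28.0 to 37.5 CPM.

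Male and female hearts were compared next. None of the 10 genes passed in edgeR's test without a litter term, where 0.0436% of tested genes did, nor in DESeq2, where 0.0654% did, and 0 of the 10 had an unadjusted p under 0.05 against 2.22% of all. Means were 75.7 ± 73.7 CPM in males and 83.9 ± 53.0 in females for Fos (SD, n = 4), and 181 ± 178 against 195 ± 124 for Egr1. The groups overlap in all 10 genes. Differences of male minus female ran from -0.40 for Fosb to -0.01 for Junb.

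Within litters the female was the higher of the pair in 31 of 40 comparisons, in all 10 genes in litter 1, in 8 in litter 2, in 5 in litter 3 and in 8 in litter 4. Over all tested genes the female was higher in 49%, 50.3%, 50.4% and 47.8%. Fos had male minus female differences of -0.61, -0.84, 0.19 and -0.36 in litters 1 to 4, and Egr1 of -0.39, -0.75, 0.26 and -0.54. Junb, Nr4a1 and Ier2 shared this pattern of a higher female in litters 1, 2 and 4 and a higher male in litter 3, so that 5 of the 10 genes had it, against 7.62% of all. Fosb and Jun were higher in the female of all 4 litters, against 9.36% of all. The 10 values of a pair come from the same 2 libraries and are not independent.

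**Figure D4:**
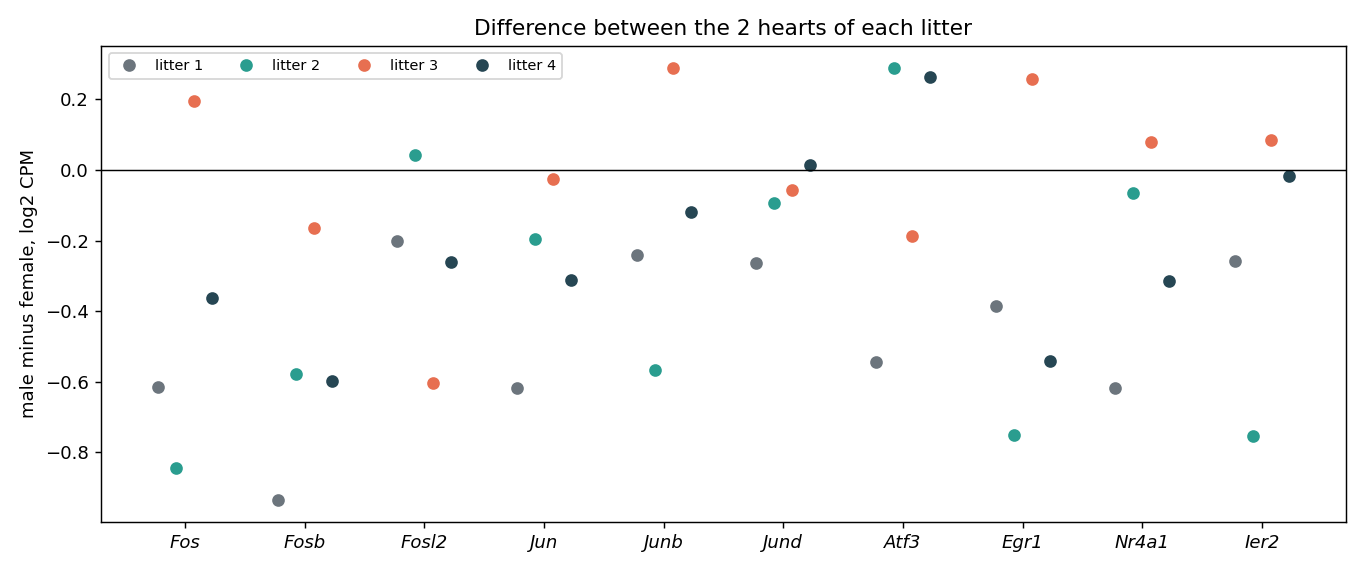
Log2 CPM of the male minus the female of each litter for the 10 genes, 1 point per litter, with 0 marked. Points of litter 1 lie below 0 in every gene, while those of litter 3 lie between -0.60 for Fosl2 and 0.29 for Junb.

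With litter as a block, which tests these pairs, 0 of the 10 genes passed after adjustment, where 0.211% of tested genes did. Fosb came closest, at -0.54 (SE 0.11, edgeR adjusted p = 0.0987), and Fos was at -0.38 (SE 0.12, adjusted p = 0.307). At an unadjusted p under 0.05 there were 6 genes, Fos, Fosb, Fosl2, Jun, Egr1 and Nr4a1, all lower in males, against 11.6% of all tested genes. Whether the pair of litter 3 differs from the other pairs was not tested.

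Other genes of the immediate-early response were read from 5 lists of 114 genes, of which 102 could be tested. Of these, 40 differed by litter (39.2%, against 32.1% of all tested genes), 24 were higher in litter 3 (23.5%, against 13.6%) and 14 lower (13.7%, against 14.8%). No list moved as the 10 genes did. Without litter 3 the count by litter was 18, and without the female of litter 1 it was 26. With library size alone, 30 were higher and 11 lower in litter 3. The count lower in litter 3 was 4 without its female and 9 without its male.

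Feedback inhibitors, which shut the response down, had 7 of 23 genes higher in litter 3 (30.4%, against 13.6% of all tested genes). In this list 1 gene was lower (4.35%, against 14.8%), and the median difference was 0.13. Btg2, an antiproliferative gene, had 16.2, 22.9, 69.6 and 28.1 CPM in the males and 21.1, 20.6, 60.2 and 26.2 CPM in the females. That difference of 1.55 (SE 0.09, edgeR adjusted p = 1.32e-06) is as large as that of Ier2. Zfp36, whose protein binds AU-rich elements and destabilises such RNAs, was higher by 1.17 (SE 0.11, adjusted p = 2.65e-05), and its relative Zfp36l1 by 0.54 (SE 0.07). Dusp1, a phosphatase of MAP kinases, was higher by 0.84 (SE 0.10, adjusted p = 0.000109).

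Among other induced transcription factors and nuclear proteins, 5 of 20 were higher (25%, against 13.6% of all tested genes) and 3 lower (15%, against 14.8%). Their median was 0.29. Klf10 was higher by 1.28 (SE 0.14, edgeR adjusted p = 6.11e-05), Csrnp1 by 0.96 (SE 0.15) and Bhlhe40 by 0.54 (SE 0.10), while Hes1, a Notch target, was lower by -0.57 (SE 0.12, adjusted p = 0.00382). Relatives of the 10 genes did not all go with them. Nr4a3 had 26 to 71 counts per library and a litter 3 difference of 0.51 (edgeR adjusted p = 0.153), Nr4a2 one of 0.32 (adjusted p = 0.193) and Egr2, with 5 to 23 counts, one of 0.87 (SE 0.39, adjusted p = 0.120). Ier3 was lower by -0.34 (adjusted p = 0.0368) and Ier5l by -0.64 (adjusted p = 0.0421). Fosl1 had at most 1 count in a library, Egr4 at most 5 and Egr3 at most 12, and none of these was tested.

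AP-1 partners and other bZIP genes had 4 of 12 higher (33.3%, against 13.6% of all tested genes) and 1 lower (8.33%, against 14.8%). Their median was 0.13. Maff, a small Maf factor, was higher by 1.04 (SE 0.22, edgeR adjusted p = 0.00508), Atf6, the sensor of endoplasmic reticulum stress, by 0.34, and Atf5 was lower by -0.58 (SE 0.08). Induced signalling and secreted genes had 4 of 19 higher and 4 lower (21.1% each), with a median of -0.03. Sik1, a salt-inducible kinase, was higher by 0.91 (SE 0.10, adjusted p = 4.88e-05) and Rgs2, a regulator of G protein signalling, by 0.76, while Thbs1, a matricellular glycoprotein gene, was lower by -1.10 (SE 0.23). By sex, Thbs1 differed by 1.25 without the block (male minus female, edgeR adjusted p = 1.00) and by 1.22 with it (SE 0.17, adjusted p = 0.0117). Upstream kinases and factors had 4 of 28 higher and 5 lower (14.3% and 17.9%, against 13.6% and 14.8% of all tested genes), with a median of 0.07. Called differences of litter 3 included Ep300 at 0.31, Mapk3, which encodes ERK1, at 0.21, Map3k1 at -0.32 and Elk3 at -0.57, though Elk3 stood out more in litter 2, where it was higher by 1.22 (SE 0.15, edgeR adjusted p = 0.000659).

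**Figure D5:**
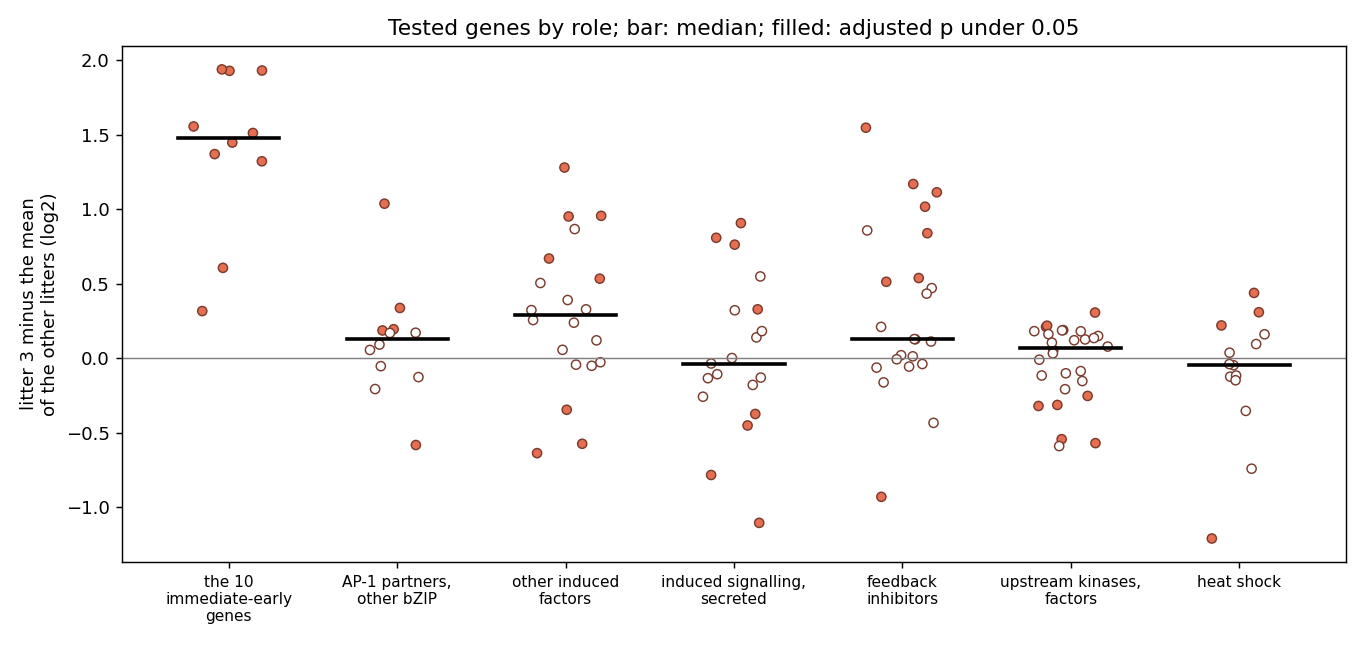
Log2 difference of litter 3 from the mean of the other litters for each tested gene, by role; bars are medians and filled points have an adjusted p under 0.05. The 10 immediate-early genes have a median of 1.48, and the medians of the other roles lie between -0.04 and 0.29.

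Heat shock genes, another group known to respond when tissue is handled, were set beside them. Of 14 tested, 6 differed by litter (all tested genes 32.1%), 3 were higher in litter 3 (13.6%) and 1 was lower (14.8%), with a median of -0.04. Dnajb1 was higher by 0.44 (SE 0.08, edgeR adjusted p = 0.00201), Hspb1 by 0.31 and Hsp90ab1 by 0.22, while Hspa1b, at 0.824 to 4.42 CPM, was lower by -1.21 (SE 0.33, adjusted p = 0.0174). Hspa1b is a near copy of Hspa1a, so its reads are uncertain. The count by litter was 3 without the male of litter 1, 3 without litter 1 and 3 without litter 3.

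Markers of other cells also moved with litter 3, where the 10 genes were high. The summed level of the fibroblast list was 33.1 and 53.0 CPM in litter 3 against 105 to 246 in the other 6 libraries, with 6 of 8 genes lower, where 14.8% of all tested genes were lower and 13.6% higher. For endothelial cells it was 19.1 and 19.5 CPM against 17.1 to 154 (6 of 8 lower), and for the mural list 916 and 941 against 1335 to 1454 (4 of 7 lower). Most of the mural sum was Acta2 and Abcc9. Acta2 had 378 CPM (male) and 351 CPM (female) in litter 3 against 806 to 985 elsewhere, and Abcc9 487 and 492 against 372 to 519. Pdgfrb and Rgs5, at 0.492 to 12.2 CPM, were lower in both litter 3 libraries than in the other 6. The cardiomyocyte list summed to 65676 and 67107 CPM against 69663 to 81947, with 4 of 10 genes lower and 1 higher. The higher one was Nppa, the atrial natriuretic peptide gene, at 1202 CPM (male) and 1544 CPM (female) in litter 3 and at 181 to 480 CPM elsewhere. The erythroid list was 188 and 541 CPM against 99.3 to 246 (2 of 5 higher), and the macrophage list 6.75 and 10.3 against 5.36 to 9.68, with 0 of 3 called. The epicardial list was 23.4 and 23.5 CPM against 12.6 to 17.8, with a median log2 difference of -0.46 (1 of 4 genes higher and 1 lower). Nearly all of that sum was Tbx18, at 21.5 and 21.9 CPM in litter 3. As for the Schwann and neural list, it summed to 13.7 and 14.2 CPM against 10.3 to 13.6. The neutrophil list had no count in either litter 3 library, the lymphocyte list at most 0.0888 CPM. The mitochondrial share was 14.7% and 14.97% in litter 3 against 13.4% to 18.5%. The part of these cell types in the level of the 10 genes was not tested.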

How the data were processed

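RNA of 8 cardiomyocyte samples was sequenced in 100-base single reads after a strand-specific total RNA preparation, per the labels' protocols, although poly(A) RNA is listed as the molecule. The submitters' processing notes name STAR 2.7.3a and the build mm10; the counting program, annotation and strand setting are not given in the sources used here. The authors deposited raw read counts per symbol and sample, and 0 columns belong to other samples.

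Genes were filtered with filterByExpr on sex and scaled with TMM in edgeR 4.0.16 (R 4.3.3), and log2 values used a prior count of 2. Litter was tested with glmQLFTest in a model with sex, with 3 residual degrees of freedom, followed by each litter against the mean of the other 3 and the 6 pairs of litters. Those contrasts share libraries. Sex was tested without a block, with 6 residual degrees of freedom. P-values were adjusted by Benjamini-Hochberg over all tested genes, with a threshold of 0.05, and a standard error is the log2 difference divided by the square root of F. RPKM, promoter, 3' end and overlap values used GENCODE M21 (GRCm38, the build named mm10) and RefSeq; 46269 entries (95.5%) matched 1 annotated gene. DESeq2 1.42.0 was an alternative. Scripts were tested on simulated data. There the litter test recovered 65% of 1.5-fold and 100% of 3-fold changes, and 8.84% of its calls were false, above the threshold used. With no change simulated it made 0 calls.

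The genes, lists and tests were chosen with earlier results of these data known. Named beyond the 10 were up to 4 genes per list with the smallest adjusted p in the litter test, and by r the 5 genes closest to Fos and 1 for each other gene; a gene that this rule names is not reported here. Relatives of the 10 genes, Prdx2, Gm11175 and the genes of the closing section were named after their values were seen.

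Sample numbers are litters in the labels and therefore pair brother and sister. Deviations from the mean of each sex correlated within litters 1 to 4 across genes at 0.51, 0.50, 0.70 and 0.37. Replicates are separate hearts, and chi-square per degree of freedom between libraries of 1 sex was 10.5 to 49.9, so no library repeated another.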

Additional observations from a re-analysis of the deposited data

Results flagged for a closer look

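Each group of 4 libraries of a sex was examined for a highest or lowest library far outside the other 3, by Dixon's test. Of 42 groups 9 had one, where chance gives about 2.1, and the groups share libraries. Among the 20 groups of the 10 genes there were 6, each with a litter 3 library highest.

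The male of litter 3 had 43.5 CPM of Fosb against 7.65 to 11.2 in the other males, 440 CPM of Jun against 147 to 174, 35.8 CPM of Atf3 against 11.9 to 14.2 and 446 CPM of Egr1 against 63.7 to 129. The female of litter 3 had 253 CPM of Jund against 164 to 175 in the other females and 52.7 CPM of Ier2 against 18.2 to 23.5. Summed, the 10 genes reached 1604 CPM in that male, and 487 to 635 CPM in males of other litters.

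The mitochondrial share was 18.5% of counts for male 4, and 14.2% to 14.7% for males 1 to 3. The mural list summed to 916 CPM, without TMM, in the female of litter 3 against 1364 to 1428 in the other females. Its gene Acta2 had 351 CPM in that female against 817 to 869 in the others.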

How the results depend on the processing

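Calls of the 10 genes by litter, in litter 3 and by sex were the same under library size alone, DESeq2 size factors, no filter, a mean of at least 50 counts and without mitochondrial genes, except that Fosl2 missed the threshold in litter 3 at a mean of 50 counts (0.31, adjusted p = 0.0507). The count lower in litter 4 was 5 with library size alone and 4 without a filter, and Fosl2 had 3.06 RPKM on the longest transcript. Other scalings moved the median of all genes in litter 3 by at most 0.04.

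In fits without 1 library or 1 litter, counts were 8 to 10 of 10 by litter, 9 to 10 higher in litter 3, 0 to 2 higher and 0 to 8 lower in litter 1, 0 to 1 and 3 to 9 in litter 2, 0 to 5 and 0 to 8 in litter 4, 18 to 45 pathway genes and 3 to 7 heat shock genes. A litter left with 1 library is assumed to vary like the others. Male minus female changed sign in 9 genes, with no call, running from -1.09 to 0.37 for Fos, -1.31 to 0.18 for Fosb, -0.76 to 0.15 for Jun, -0.62 to 0.31 for Junb, -0.28 to 0.065 for Jund, -0.62 to 0.43 for Atf3, -1.07 to 0.41 for Egr1, -0.73 to 0.27 for Nr4a1 and -0.76 to 0.34 for Ier2. The lowest value of these came without the male of litter 3 and the highest without its female.

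The replicate block left the count by sex at 0 of the 10 genes and changed no call among them, while among the 102 pathway genes it raised the count from 0 to 1, Thbs1. Depth limits little here, since the lowest count of any of the 10 genes was 184, for Fosb. The cause of these shifts was not tested.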

Other observations

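Other immediate-early genes passed in edgeR in litter 3 and were picked here after their values were seen. Among feedback inhibitors, Dusp6, a phosphatase of ERK, was higher by 1.02, Socs3, an inhibitor of cytokine signalling, by 1.11 and Spry2 by 0.51, while Dusp10 was lower by -0.93. The clock gene Per1 was higher by 0.95, Myc by 0.67 and the small GTPase gene Rhob by 0.33. Edn1, the gene of endothelin-1, was lower by -0.78, Hbegf, an EGF receptor ligand, by -0.37 and the kinase gene Pim1 by -0.45. Il6, Ptgs2 and Cxcl1 had few counts, with Il6 at no more than 1 count per library, Ptgs2 at no more than 3 and Cxcl1 at no more than 5.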
